A study of Mus musculus with 7 samples.

Results

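Messenger RNAs of 10 genes that mark tissue macrophages were followed across 7 tissues of the mouse. The genes were chosen by name: Adgre1, Cd68 and Csf1r as pan-macrophage genes, Clec4f and Marco as genes of Kupffer cells, Cx3cr1, P2ry12 and Tmem119 as genes of microglia, and Mrc1 and Trem2 as genes of adipose tissue macrophages. All 10 were found among the 50226 gene names of the table, which hold 21341 protein-coding names, and the locus used for each reached at least 1 FPKM in at least 1 tissue, as it did for 14928 protein-coding names in all. The locus of Cx3cr1 is shared with another gene, and those of Marco, P2ry12 and Tmem119 lie on the opposite strand, as described below. FPKM is a fragment count scaled for transcript length and library size, so that levels of different genes can be set side by side.

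RNA-Seq was performed on the fat depots VAT (visceral), SCAT (subcutaneous) and BAT (interscapular brown adipose tissue) and on liver, kidney, cortex and skeletal muscle to compare RNA profiles between metabolically active tissues. All animals were wild-type mice of the strain labelled C57BL/6, given as C57BL/6N in the study, on the diet labelled NCD, aged 36 weeks, with no other treatment or allele named. Libraries were made from rRNA-depleted total RNA with a kit that keeps strand. Each tissue has 1 library, so no difference between tissues has a replicate check, no test was possible, and the depth behind each FPKM is unknown.

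Macrophages settle in every organ and depend on signals through the receptor encoded by Csf1r. Those of each organ add genes of their own: Kupffer cells line the liver sinusoids and take up particles and dying red cells from the blood, microglia survey the brain parenchyma, and adipose tissue macrophages surround adipocytes and handle lipid. In bulk tissue, fewer cells of a type and less RNA per cell cannot be told apart.

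The tissues carried the markers of their main cells. The summed FPKM of hepatocyte genes was 5713 in liver, that of kidney tubule genes 1839 in kidney, that of neuron and glia genes 517.0 in cortex, and that of myofibre genes 24002 in muscle, each the highest of the 7 libraries, although the table gave no usable liver value for Alb, the albumin gene, and no usable muscle value for the myosin gene Myh4. Ucp1, the uncoupling protein of brown fat, was at 6552 FPKM in BAT and at 10.6 or less elsewhere. In several libraries, markers of other cells were found as well. In SCAT, 9 of 10 lymphocyte genes were at least 4-fold above every other tissue. These 9 had a summed FPKM of 215.3 against 0.384 to 7.15 in the other tissues. The remaining gene, Ltb, is in a locus merged with Bag6. In VAT, hepatocyte genes summed to 291.0 against 2.34 to 16.3 in the 5 tissues other than liver and VAT. Alb made up 252.7 FPKM of the VAT sum, and the liver sum holds no Alb. In BAT, the myosin light chain gene Mylpf of myofibres was at 81.9 FPKM, against 0.150 to 8.60 in the 5 tissues other than muscle and BAT. In muscle, adipocyte genes summed to 52.7 FPKM, against 1.45 to 17.6 in liver, kidney and cortex. The genes called enriched are given below with the SCAT or the VAT library left out.

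A gene was called enriched in a tissue when it had at least 1 FPKM there and its log2(FPKM + 0.1) was at least 2, which is 4-fold, above its value in any other tissue. Of the specialised genes 3 met the rule, 1 in each of 3 tissues: Clec4f in liver, P2ry12 in cortex and Marco in SCAT. Of all 14928 protein-coding genes, 21.4% met it in some tissue, among them 3.39% in liver, 8.21% in cortex and 1.93% in SCAT. The 250 bases before their RefSeq starts (GRCm38.p6) are shown because these 3 genes met the rule. Capitals mark matches on either strand to GAGGAA, the purine-rich core bound by the macrophage factor PU.1, and to GGAAGT, a core of the ETS family to which PU.1 belongs. The AP-1 site TGAGTCA was searched too and had no match in these 3 windows.
Clec4f, chr6:83656117-83656366, minus strand: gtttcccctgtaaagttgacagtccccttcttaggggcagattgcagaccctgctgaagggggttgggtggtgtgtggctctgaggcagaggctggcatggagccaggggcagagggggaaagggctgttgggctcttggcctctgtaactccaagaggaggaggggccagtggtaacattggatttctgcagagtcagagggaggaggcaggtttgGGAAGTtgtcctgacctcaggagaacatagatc
Marco, chr1:120505025-120505274, minus strand: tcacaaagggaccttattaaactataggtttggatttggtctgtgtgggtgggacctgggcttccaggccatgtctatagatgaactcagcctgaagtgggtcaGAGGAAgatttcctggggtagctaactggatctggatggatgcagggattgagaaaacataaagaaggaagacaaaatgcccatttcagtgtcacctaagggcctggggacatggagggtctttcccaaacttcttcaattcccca
P2ry12, chr3:59262986-59263235, minus strand: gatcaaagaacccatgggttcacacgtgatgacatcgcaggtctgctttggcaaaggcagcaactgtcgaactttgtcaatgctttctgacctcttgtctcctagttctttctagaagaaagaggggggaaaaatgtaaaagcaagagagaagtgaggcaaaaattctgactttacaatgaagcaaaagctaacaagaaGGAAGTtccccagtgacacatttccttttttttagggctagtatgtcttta
Windows were found for 7 of the 10 genes, namely these 3, Cd68, Cx3cr1, Mrc1 and Trem2. GAGGAA lay in 4 of the 7 (Cd68, Marco, Mrc1 and Trem2) and in 23.3% of 32851 windows of this length, GGAAGT in 3 of the 7 (Clec4f, Mrc1 and P2ry12) and in 19.7%, and TGAGTCA in 1 of the 7 (Cd68) and in 4.46%. The first 2 motifs share the letters GGAA and can overlap. In Clec4f the match began 33 bases before the start, in P2ry12 51 and in Marco 146. A match describes the letters only.

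The pan-macrophage genes were measured in nearly every tissue and none was enriched in any. Adgre1 (ENSMUSG00000004730.15, chr17:57358691-57483527) encodes F4/80, the surface adhesion receptor by which mouse macrophages are commonly identified. Its level was 9.59 FPKM in liver, 10.1 in VAT, 6.41 in SCAT, 7.41 in BAT, 3.50 in muscle, 1.39 in kidney and 1.25 in cortex. VAT and liver stood within 1.05-fold of each other at the top, and kidney and cortex within 1.11-fold at the bottom, with a step of 2.53-fold between muscle and kidney. Cd68 (ENSMUSG00000018774.13, chr11:69664213-69666153) encodes a lysosomal glycoprotein of phagocytes. Its level was 5.20 FPKM in liver, 11.9 in VAT, 11.96 in SCAT, 12.2 in BAT, 15.4 in muscle, 0.877 in kidney and 1.43 in cortex. The 3 fat depots lay within 1.03-fold of each other, with muscle 1.26-fold above BAT and kidney lowest. With the libraries rescaled by their median ratio, muscle was no longer the highest.

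Csf1r (ENSMUSG00000024621.16, chr18:61100598-61132149) encodes the receptor for the growth factors CSF1 and IL-34. Its level was 15.1 FPKM in liver, 11.5 in VAT, 15.3 in SCAT, 5.98 in BAT, 9.30 in muscle, 5.48 in kidney and 6.89 in cortex. It had the narrowest range of the 3, 2.79-fold from kidney to SCAT, against 8.04-fold for Adgre1 and 17.6-fold for Cd68. The 3 genes did not share 1 order of tissues, but kidney and cortex were the lowest 2 for Adgre1 and Cd68, and kidney was the lowest for Csf1r. Their geometric mean after adding 0.1 FPKM was 11.2 in VAT, 10.7 in SCAT, 9.21 in liver, 8.25 in BAT, 8.06 in muscle, 2.43 in cortex and 2.01 in kidney. Kidney and cortex thus lay below the other 5 tissues.

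**Figure D1:**
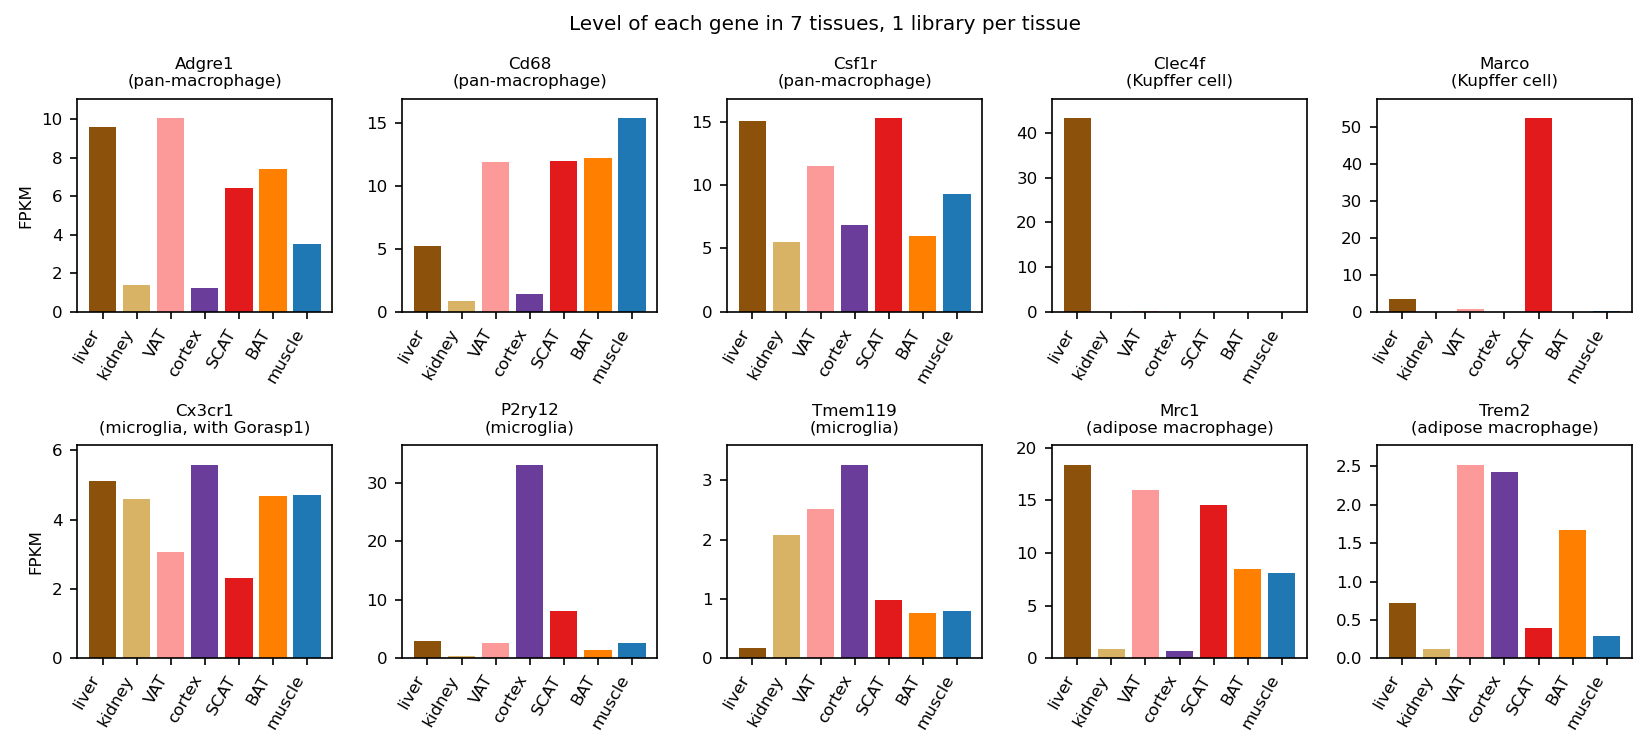
FPKM of each of the 10 genes (vertical axes, each from 0 with its own scale) in 7 tissues, 1 bar for each library and no error bars because each tissue has 1 library. Clec4f stands at 43.3 FPKM in liver, Marco at 52.3 in SCAT and P2ry12 at 33.1 in cortex, while the pan-macrophage genes are spread over the tissues and the bars of Cx3cr1 are those of a locus shared with Gorasp1.

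The other pan-macrophage genes placed the lymphocyte-rich library higher than the 3 above did. Of 21 further genes, 20 were found in the table, and 12 of these were highest in SCAT, 6 in VAT, 1 in kidney and 1 in BAT. Their summed FPKM was 468.2 in SCAT, 229.9 in VAT, 149.4 in BAT, 144.4 in liver, 86.9 in muscle, 73.6 in cortex and 51.6 in kidney. One of the 20 was enriched: Ptprc, the CD45 antigen carried by all leukocytes including lymphocytes, was at 125.4 FPKM in SCAT and 11.2 in VAT, the next highest. The protease gene Ctss was at 88.2 FPKM in SCAT and 36.5 in VAT, and the lysozyme gene Lyz2 at 79.0 in SCAT and 59.1 in VAT. Lymphocyte genes were highest in the same library, and their part in these levels was not tested.

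**Figure D2:**
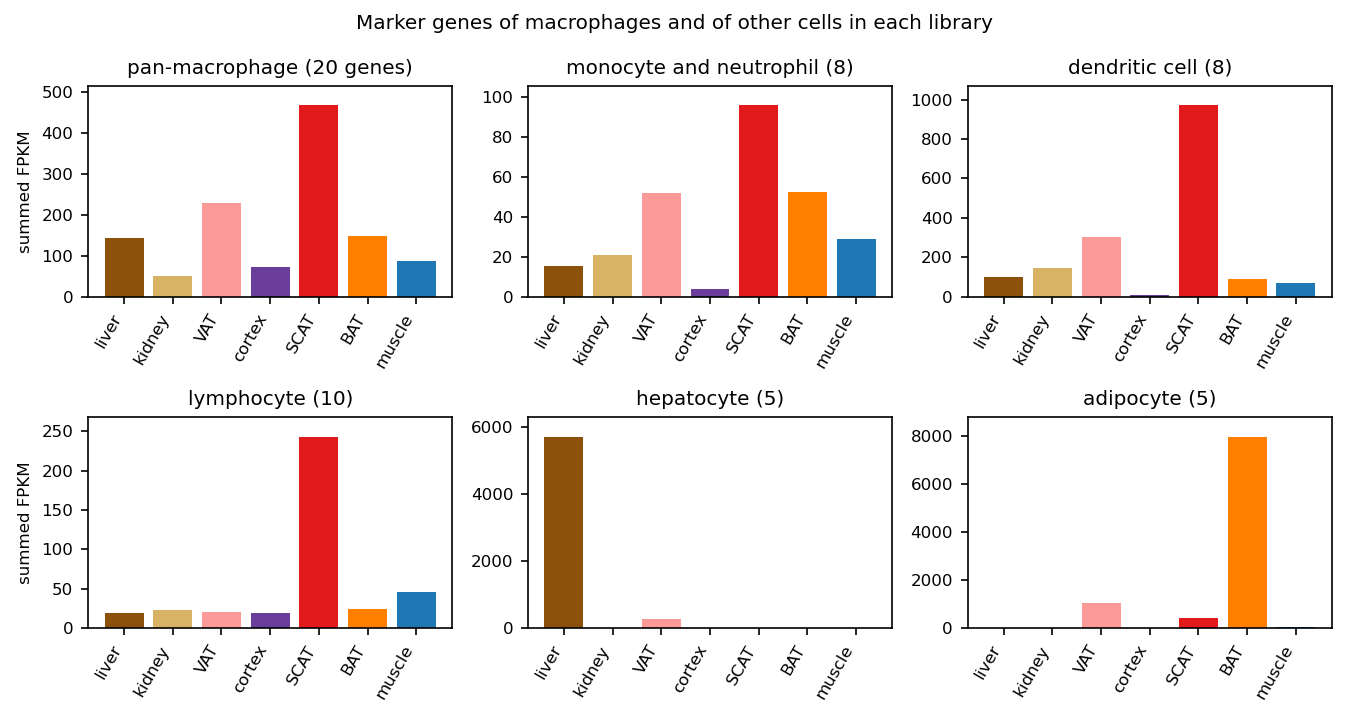
Summed FPKM (vertical axes, each from 0) of marker lists in the 7 libraries, the number of genes in each list being given above its panel and loci merged with another gene included. SCAT has the highest sums of the pan-macrophage, monocyte and neutrophil, dendritic cell and lymphocyte genes. Liver, followed by VAT, has the highest sum of hepatocyte genes, although the liver sum holds no Alb and the VAT sum is mostly Alb.

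Clec4f was the gene most closely tied to 1 tissue. Clec4f (ENSMUSG00000014542.3, chr6:83644542-83656187) encodes a C-type lectin of mouse Kupffer cells. Its level was 43.3 FPKM in liver, 0.226 in VAT and 0.0476 in BAT, and it was listed at 0 in kidney, cortex, SCAT and muscle. Liver was 191-fold above VAT, a log2 difference of 7.05 after adding 0.1 FPKM. Some hepatocyte genes were next highest in VAT too: Apoa1, an apolipoprotein secreted by hepatocytes, was at 2521 FPKM in liver and 17.7 in VAT, and the part of such transcripts in the VAT level of Clec4f was not tested. Without the VAT library, the log2 difference of Clec4f over the next tissue was 8.20.

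Marco, the other Kupffer cell gene, was not highest in liver. Marco (ENSMUSG00000026390.7, chr1:120474538-120505024) encodes a scavenger receptor, which macrophages of the spleen and of lymph nodes carry as well. Its level was 3.55 FPKM in liver, 0.689 in VAT, 52.3 in SCAT and 0.251 in muscle, and it was listed at 0 in kidney, cortex and BAT. SCAT was 14.7-fold above liver, and liver 5.16-fold above VAT. In the same library 9 of the 10 lymphocyte genes were enriched, among them the B cell gene Ms4a1 at 50.6 FPKM against 1.61 or less elsewhere. Their part in the level of Marco was not tested. Without the SCAT library, Marco was enriched in liver, so that 2 of the 10 genes were.

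Some of the further Kupffer cell genes divided in the same way. Of 10 genes, 2 were enriched in liver and 2 in SCAT, beside 3.39% and 1.93% of all protein-coding genes. The highest tissue was liver for 4 of the 10, SCAT for 2, and kidney, VAT, BAT and muscle for 1 each. Vsig4, a complement receptor, was at 14.5 FPKM in liver and at 1.21 in VAT, the next highest. Cd5l, a secreted scavenger protein of macrophages, was at 16.5 FPKM in liver and 1.62 in SCAT. Timd4, a phosphatidylserine receptor with which macrophages take up dying cells, was at 16.6 FPKM in SCAT and 2.25 in liver, and Spic, a transcription factor of macrophages that recycle iron, was at 7.66 in SCAT and 1.38 in liver. All 4 were thus low in kidney and cortex, where none exceeded 0.0239 FPKM. Without the SCAT library, Timd4 joined Vsig4 and Cd5l as enriched in liver. In each of the 4, the 2 highest tissues were liver and SCAT, except that VAT was next to liver for Vsig4.

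Of the Kupffer cell genes with the highest levels, Slc40a1, the iron exporter ferroportin, was at 115.1 FPKM in liver and 53.7 in muscle, in a locus merged with the pseudogene name Gm18303. Nr1h3, the oxysterol receptor LXR alpha, which hepatocytes and adipocytes also express, was at 37.9 FPKM in BAT and 36.0 in liver. Over the 10 further genes, the median log2 difference between liver and the highest other tissue was -0.21, beside -1.32 over the 14928 protein-coding genes. Some genes of the endothelium were also highest in liver, namely 5 of 8, while Pecam1, Cdh5 and Tie1 were highest in BAT. Only 1 of the 8 was enriched in liver: Clec4g, a lectin of liver sinusoidal endothelial cells, at 31.3 FPKM.

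**Figure D3:**
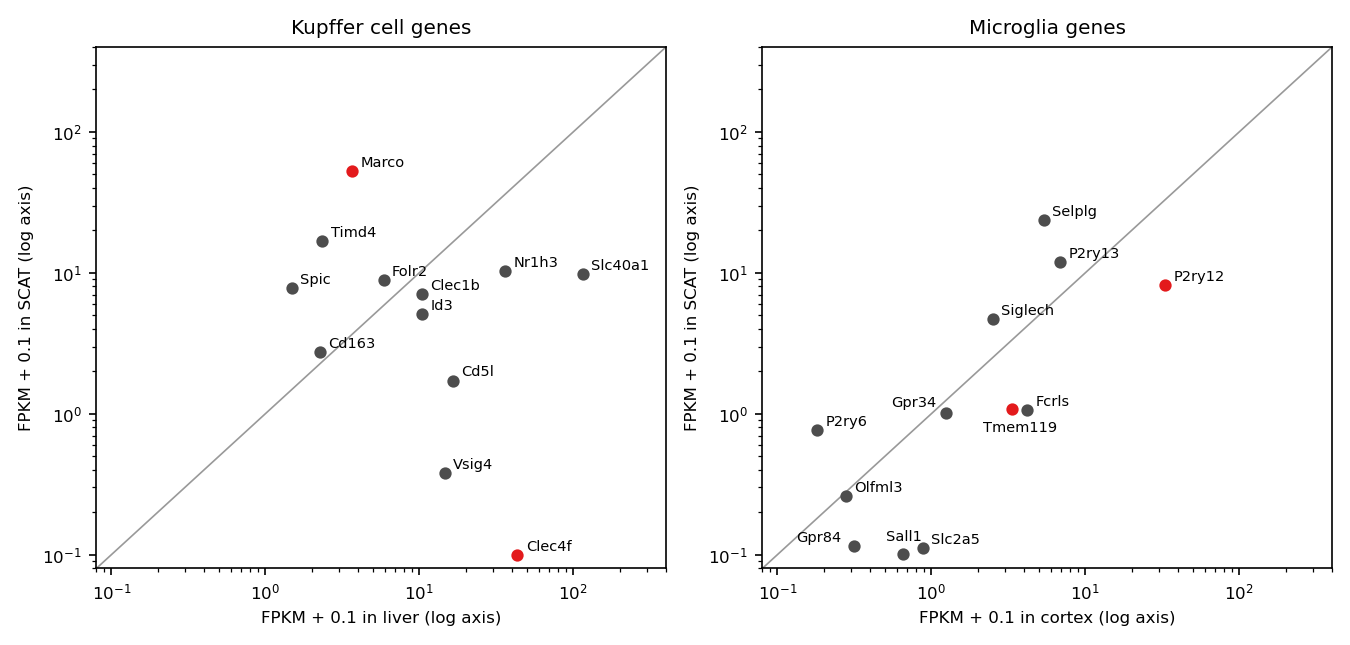
Each point is a gene, with its FPKM + 0.1 in liver (left) or cortex (right) on the horizontal log axis and in SCAT on the vertical log axis, members in red, further genes in grey, and the line marking equal levels; Cx3cr1 is left out because its locus is merged, and not every further gene is drawn. Marco, Timd4 and Spic lie above the line and Clec4f, Vsig4 and Cd5l below it, and in the right panel P2ry12 lies below the line and P2ry13, Selplg and Siglech above it.

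Of the microglia genes, P2ry12 alone met the rule in cortex, and only just. P2ry12 (ENSMUSG00000036353.13, chr3:59216272-59262871) encodes the ADP receptor by which microglial processes find sites of injury. Its level was 2.99 FPKM in liver, 2.67 in VAT, 8.05 in SCAT, 1.40 in BAT, 2.62 in muscle, 0.314 in kidney and 33.1 in cortex. Cortex was 4.11-fold above SCAT, and SCAT 2.70-fold above liver. The log2 difference of 2.02 passed the limit of 2 by little. It was 1.91 with a pseudocount of 1, 1.73 with the libraries rescaled by their median ratio and 1.89 with the locus on the annotated strand, which was at 5.58 FPKM in cortex, so that P2ry12 was then not called. Without the SCAT library, the log2 difference was 3.43, with liver next.

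Tmem119 (ENSMUSG00000054675.5, chr5:113793729-113800516) encodes a membrane protein used to tell microglia from other brain macrophages, and it is also made by bone-forming cells. Its level was 0.182 FPKM in liver, 2.52 in VAT, 0.979 in SCAT, 0.770 in BAT, 0.802 in muscle, 2.07 in kidney and 3.26 in cortex. Cortex was highest but only 1.29-fold above VAT, and kidney was 1.21-fold below VAT. Cx3cr1 (ENSMUSG00000052336.7, chr9:119901616-120069879) encodes the receptor for the neuronal chemokine CX3CL1. It has no value of its own in these data, because its single locus is merged with Gorasp1, a gene of the Golgi stack. The merged locus was at 5.11 FPKM in liver, 3.06 in VAT, 2.30 in SCAT, 4.69 in BAT, 4.71 in muscle, 4.60 in kidney and 5.58 in cortex. This range of 2.42-fold is that of the locus, and the level of Cx3cr1 within it cannot be told apart from that of Gorasp1.

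None of the 11 further microglia genes was enriched in cortex, where 8.21% of all protein-coding genes were, and only 8 reached 1 FPKM in any tissue. Among those highest in cortex, 1 did not exceed 0.215 FPKM. Of the 11 genes, 4 were highest in SCAT, 3 each in kidney and cortex and 1 in liver. Their median log2 difference between cortex and the highest other tissue, over the 8 with at least 1 FPKM, was -1.04, beside -1.37 over all protein-coding genes. Fcrls, an Fc receptor-like gene of microglia, was at 4.09 FPKM in cortex and 2.62 in VAT. P2ry13, a further ADP receptor whose gene lies beside P2ry12, was at 6.74 FPKM in cortex and 11.8 in SCAT. Siglech, which plasmacytoid dendritic cells also carry, was at 2.42 FPKM in cortex and 4.60 in SCAT. Those 3 were named after their values were seen.

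The 2 further microglia genes that were enriched were so outside the brain. Selplg, the selectin ligand of leukocytes, was at 23.4 FPKM in SCAT and 5.26 in cortex, in a locus merged with Gm19931. Slc2a5, the fructose transporter, was at 23.2 FPKM in kidney and 0.783 in cortex. Among the ligands, Cx3cl1 was highest in cortex, at 24.6 FPKM against 8.42 in kidney, with 0.781 or less in the other 5 tissues. Il34, the ligand that maintains microglia through Csf1r, was at 8.65 FPKM in kidney and 6.05 in cortex, with 1.48 or less elsewhere.

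The genes of adipose tissue macrophages were not enriched in any fat depot. Mrc1 (ENSMUSG00000026712.3, chr2:14229392-14332057) encodes the mannose receptor CD206, which resident macrophages and liver sinusoidal endothelial cells carry. Its level was 18.4 FPKM in liver, 16.01 in VAT, 14.6 in SCAT, 8.44 in BAT, 8.12 in muscle, 0.895 in kidney and 0.660 in cortex. Liver, VAT and SCAT lay within 1.26-fold of each other, and muscle was 9.07-fold above kidney. With the libraries rescaled by their median ratio, liver was no longer the highest. The endothelial gene Stab2 was at 20.4 FPKM in liver and 8.81 or less elsewhere. Of the 8 endothelial genes, 5 were highest in liver and 3 in BAT, and the part of endothelium in the liver level of Mrc1 was not tested.

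Trem2 (ENSMUSG00000023992.14, chr17:48346401-48354147) encodes a lipid-sensing receptor of microglia and of lipid-associated macrophages. Its level was 0.717 FPKM in liver, 2.52 in VAT, 0.393 in SCAT, 1.67 in BAT, 0.295 in muscle, 0.123 in kidney and 2.43 in cortex. VAT and cortex lay within 1.04-fold of each other, and BAT was 1.45-fold below cortex. Its signalling partner Tyrobp, also called DAP12, was at 35.1 FPKM in SCAT and 31.6 in VAT, with 9.79 in cortex, so that the tissues were not in the same order for receptor and partner.

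The lists that go with Mrc1 and Trem2 were spread over several tissues. Of 10 genes of resident interstitial macrophages, 4 were highest in VAT, 3 in SCAT, 2 in muscle and 1 in kidney, and Timd4 in SCAT was the 1 enriched gene. The platelet factor gene Pf4 was at 24.1 FPKM in VAT, 17.3 in BAT and 0.629 in cortex, and Cbr2, a carbonyl reductase, at 16.7 in muscle and 10.7 in VAT. Gas6, a ligand of the TAM receptors that kidney cells make as well, was at 95.0 FPKM in kidney. Of 12 genes of lipid-associated macrophages, 4 were highest in BAT, 3 in kidney, 2 in VAT and 1 each in liver, SCAT and muscle, and the 1 enriched was Spp1 in kidney, the osteopontin gene, at 88.0 FPKM. The highest in level were the cathepsin genes Ctsd, at 812.0 FPKM in BAT, and Ctsb, at 257.9 in BAT, and the lipid droplet gene Plin2, at 549.6 in BAT, which brown adipocytes express too. The Ctsd locus is merged with Ifitm10.

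None of the 10 was enriched in kidney, where 2.49% of all protein-coding genes were, in VAT (1.21%), in BAT (0.757%) or in muscle (3.38%). All 3 that were enriched belong to the 7 specialised genes, and 1 of those 7, Cx3cr1, could not be read.

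Because FPKM is scaled for length, each specialised gene was set against the mean log2(FPKM + 0.1) of Adgre1, Cd68 and Csf1r in the same library, so that the scaling between libraries bears little on it. Clec4f was 2.24 above this mean in liver. It was at -5.10 in VAT and -5.80 in BAT, and in the 4 tissues where it is listed at 0 its relative level is set by the pseudocount and not a measurement. P2ry12 was 3.77 above it in cortex and below it in the other 6 tissues, the nearest being SCAT at -0.39. Marco was 2.30 above it in SCAT and at -1.33 in liver. These 3 genes thus exceeded the pan-macrophage genes in 1 library each. The values of P2ry12 and Marco are those of loci that, as described below, lie on the strand opposite to the gene. With loci on the annotated strand, P2ry12 was 1.22 above the mean in cortex and Marco 1.57 above it in SCAT, and both were still below it in the other 6 tissues. Adgre1, Cd68 and Csf1r have 1 locus each, but a specialised gene with 2 or 3 loci entered by 1 of them. That locus held 60.1% of the summed FPKM of Clec4f in liver, and sums over loci were not tried for the relative levels.

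The other specialised genes stayed closer to the pan-macrophage level or below it. Tmem119 was at 0.47 in cortex and 0.11 in kidney and between -5.03 and -2.10 in the other 5 tissues, again from the opposite strand, and on the annotated strand it was at -2.73 in cortex and lower in every other tissue. Trem2 was at 0.05 in cortex, against -2.10 in VAT and -4.43 in SCAT, so that relative to the pan-macrophage genes it was highest in cortex, although its FPKM was highest in VAT. Mrc1 was at 1.01 in liver, 0.52 in VAT, 0.46 in SCAT, 0.05 in BAT, 0.03 in muscle, -1.01 in kidney and -1.68 in cortex. The cortex values depend on which pan-macrophage gene is the reference, since Csf1r was 1.52 above the mean of the 3 there and Adgre1 0.85 below it. With Csf1r alone, Tmem119 was at -1.05 and Trem2 at -1.47 in cortex.

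**Figure D4:**
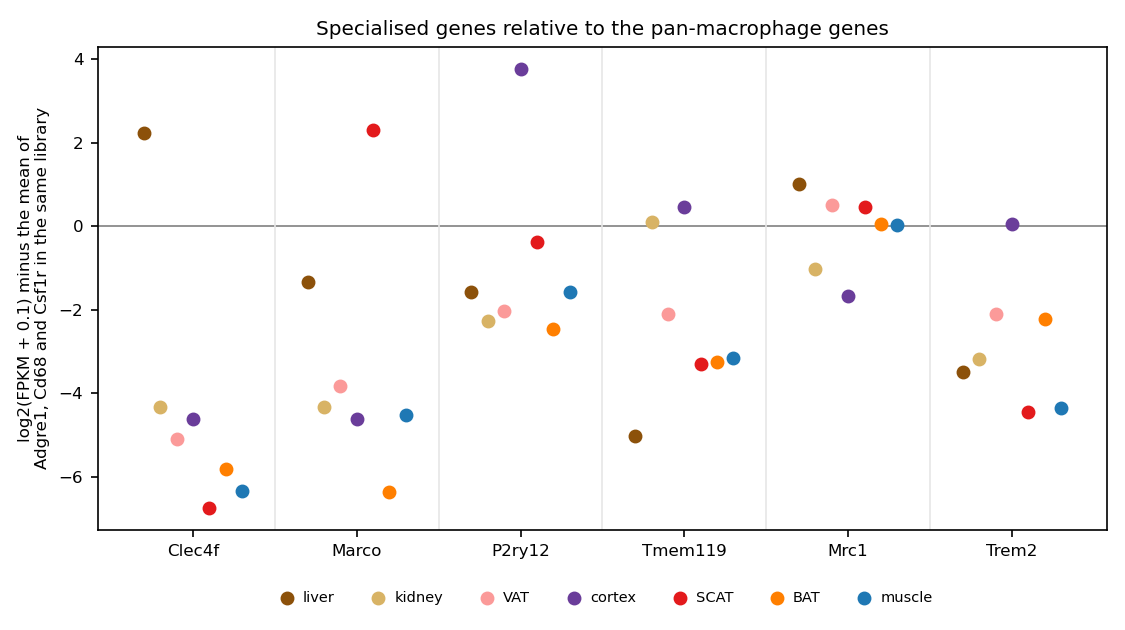
Log2(FPKM + 0.1) of 6 specialised genes minus the mean of Adgre1, Cd68 and Csf1r in the same library (vertical axis), 1 point for each tissue and no error bars; the horizontal line at 0 is the pan-macrophage level, and points of Clec4f and Marco in tissues where they are listed at 0 are set by the pseudocount. Clec4f in liver (2.24), Marco in SCAT (2.30) and P2ry12 in cortex (3.77), the last 2 from loci on the opposite strand, stand alone above the other tissues of their gene, and Mrc1 is spread within 2.68 log2 units.

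VAT and SCAT, the 2 white depots, were compared as 1 library each. A gene was counted as higher in a depot with at least 1 FPKM there and at least 2-fold above the other after adding 0.1. Tmem119 and Trem2 were higher in VAT, by 1.28 and 2.41 on the log2 scale, and 15.1% of 11964 protein-coding genes were. The difference of Tmem119 was 0.83 with a pseudocount of 1 and 0.72 on the annotated strand, under the limit of 1, and neither gene reaches a minimum of 5 FPKM. Marco and P2ry12 were higher in SCAT, by 6.05 and 1.56 on the log2 scale, and 8.62% of these genes were. Adgre1, Cd68, Csf1r, Mrc1 and the locus of Cx3cr1 differed by less than 2-fold, and Clec4f was under 1 FPKM in both. The median difference of VAT minus SCAT over the 9 genes other than Clec4f was 0.13, beside 0.16 over all protein-coding genes.

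The 3 pan-macrophage genes and Mrc1 all differed by less than 2-fold between the depots. Adgre1 was 0.64 higher in VAT, Cd68 differed by 0.01 and Csf1r was 0.41 higher in SCAT, on the log2 scale. Of the 12 lipid-associated genes, 11 had at least 1 FPKM in either depot, of which 5 were at least 2-fold higher in VAT, 0 in SCAT and 6 within 2-fold. Among them Mmp12, a macrophage elastase, was at 20.3 FPKM in VAT and 2.07 in SCAT, and Gpnmb, a lysosomal membrane glycoprotein, at 10.9 in VAT and 4.08 in SCAT. Itgax, the integrin CD11c, was at 3.94 in VAT and 7.12 in SCAT. Those 3 genes were named after their values were seen. Without loci merged with another gene, monocyte and neutrophil genes summed to 63.2 FPKM in SCAT and 32.3 in VAT, and dendritic cell genes to 965.1 and 301.8. Most of the dendritic cell sum was that of the MHC class II genes Cd74, H2-Aa and H2-Ab1, which B cells carry too, with Cd74 at 590.0 FPKM in SCAT and 160.5 in VAT. Higher in VAT by at least 2-fold were all 5 hepatocyte genes and 2 of the 4 adipocyte genes with at least 1 FPKM in either depot. The part of all these cells, and of the lymphocytes of the SCAT library, in the differences between depots was not tested.

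Several of the genes have more than 1 locus in the table, which bears on what a value stands for. The 10 names are carried by 18 loci, with 1 locus for 4 genes and 2 or 3 for the other 6, and the one that reached the highest FPKM in any tissue stands for the gene. The table lists no strand, but the order of its loci allows it to be read. By this reading the locus used lies on the annotated strand for 7 genes and on the other strand for Marco, P2ry12 and Tmem119. On the annotated strand, Marco was at 31.5 FPKM in SCAT and 2.27 in liver, P2ry12 at 5.58 in cortex and 1.44 in SCAT, and Tmem119 at 0.266 in cortex and 0.167 in VAT. Of the list genes named above, Cd5l, Slc40a1, P2ry13, Siglech, Selplg, Itgax, Ms4a1 and Ucp1 also have their value from a locus on the other strand. For the 3 members the tissue order at the top was the same on both strands. The levels at the top were lower on the annotated strand for all 3, and Tmem119 was under 1 FPKM there in every tissue.

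The share of FPKM on the annotated strand, in tissues where both strands summed to at least 1 FPKM, was of like size across tissues for Mrc1, Trem2, Marco and Tmem119. It was 62.7% to 68.0% for Mrc1 over 7 tissues, 71.5% to 74.4% for Trem2 over 4, 37.6% to 42.7% for Marco over 3, 5.91% to 7.54% for Tmem119 over 4, and it was 60.1% for Clec4f in liver, its 1 such tissue. For P2ry12 it ran from 6.04% in liver to 35.1% in BAT. P2ry12 lies within Med12l, a Mediator subunit gene on the other strand, and a Med12l locus on that strand was at 5.09 FPKM in cortex and 1.05 or less elsewhere, so that the locus used for P2ry12 and Med12l share their strand and their highest tissue. How far reads of Med12l entered the P2ry12 value was not tested.

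**Figure D5:**
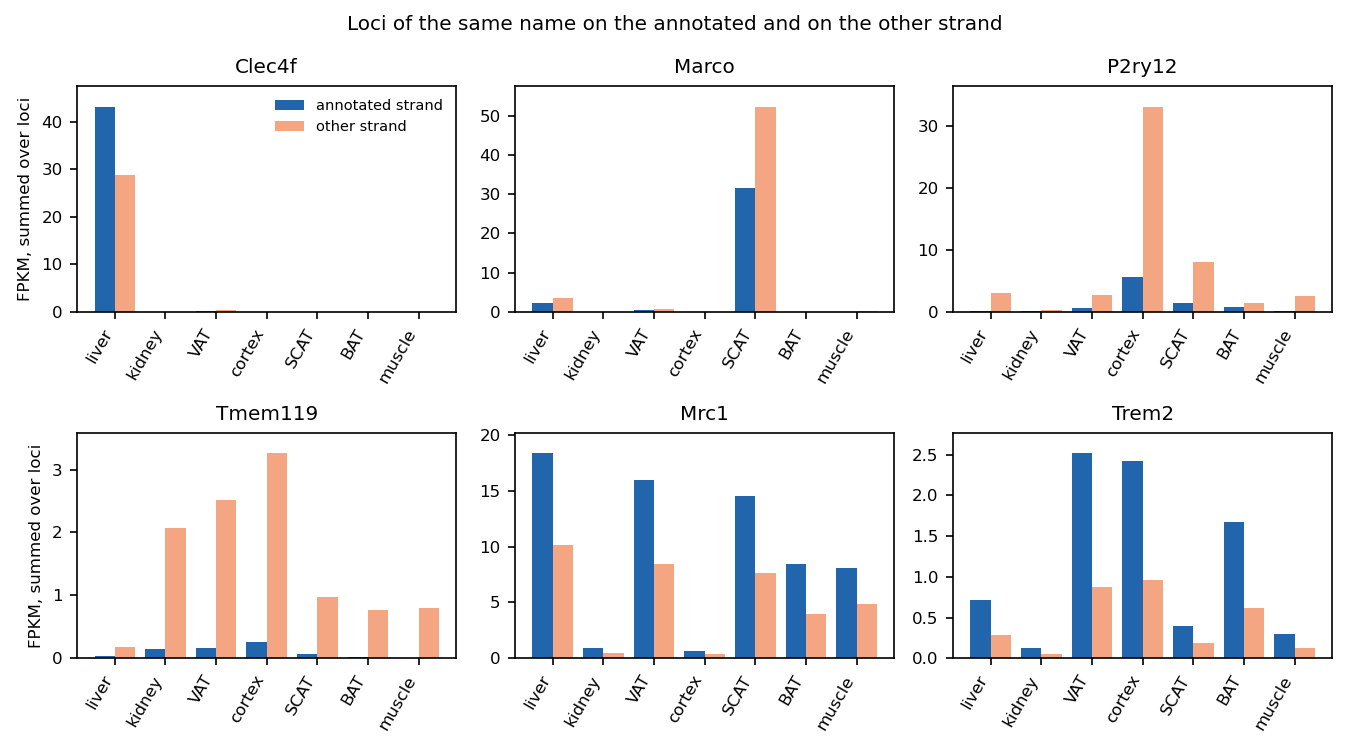
FPKM summed over the loci of each name (vertical axes, each from 0) on the annotated strand and on the other strand, as read from the order of the table, in 7 tissues for the 6 genes with more than 1 locus. The bars of both strands are highest in the same tissue for Clec4f, Marco, P2ry12, Tmem119 and Mrc1, while for Trem2 VAT is highest on the annotated strand and cortex on the other.

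The patterns were also set beside those of all other names with a value in 7 tissues and at least 1 FPKM, by Pearson correlation of log2(FPKM + 0.1) over the 7 libraries. The points share the libraries and their scaling, and 7 points make high values common. Adgre1 was most like Slc11a1, a phagosomal metal transporter (r = 0.98), Nnmt and Orm1 (0.98 each). Cd68 was most like Col5a3, Il3ra and Ccl24 (0.97 each), and Csf1r like Pias3, Itgb3 and Hpse (0.94 each). Mrc1 was most like Steap4 and the endosomal receptor gene Tlr8 (0.98 each) and Wfdc17 (0.97).

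Among the genes that were enriched, Marco was most like Timd4, a further macrophage scavenging receptor (r = 0.98), Itgb3 (0.98) and Gm44141 (0.97). Clec4f was most like Dnase2b, Obox4-ps2 and Gm13614, but 96 names reached a correlation of 0.99 with it, as genes found in liver alone do. P2ry12 was most like A230072C01Rik (0.995), the kinase gene Fyn (0.97) and the myelin gene Cnp (0.96). Tmem119 was most like Fbxo10 (0.98), Plcl1 and Gmds (0.97 each), Trem2 like Ypel5, Cfap161 and Cpne5 (0.93 to 0.90), and the Cx3cr1 locus like Rab5a (0.99) beside Gorasp1, with which it is 1 locus. Among the 10 genes themselves, Adgre1 and Mrc1 were the most alike (0.96), followed by Csf1r and Marco (0.90), and P2ry12 and Tmem119 reached 0.19.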

How the data were processed

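The authors removed adapters with flexbar and rRNA reads with Bowtie2 2.2.9, aligned to GRCm38 with STAR 2.6.0c, assembled transcripts with Cufflinks 2.2.1 and ran Cuffdiff, per the labels and the study's methods. Cuffdiff's scaling and library type are not given in the sources used here. The deposited values are FPKM for 94339 loci in 21 comparisons. The authors' fold changes, p-values and test calls were not used, and 0 columns of per-sample values were left out.

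Loci with the status FAIL (151) were dropped, and zeros with the status LOWDATA (83 loci) were missing values. Names were matched to GENCODE M21, and strand was read from the order of loci. Levels were compared as log2(FPKM + 0.1), which understates differences of low genes. With 1 library per tissue no test was run. The members and gene lists were chosen with earlier results of these data known. Named are the members, list genes that were enriched or among the 3 highest, and the 3 names most like each member. Of the genes named by this rule, 2 are not reported here. Of the lists, Irf8, Col1a2 and Acta1 were not found by name. Alternatives covered pseudocount, minimum, fold, scaling, loci and LOWDATA zeros. Python 3.11.15, pandas 2.3.3, NumPy 2.4.6 and matplotlib 3.10.9 were used.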

Additional observations from a re-analysis of the deposited data

How the results depend on the processing

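No paired analysis was possible because each tissue has 1 library. For the same reason no value has a replicate error, and low levels such as those of Trem2 and Tmem119 have an unknown precision. Many alternatives left a value as it was, since no member has a LOWDATA value and 4 have 1 locus. Of the 43 log2 ratios of a gene's highest tissue over the next that an alternative changed, 38 kept their direction and side of the limit, as did 36 of 39 changed differences between VAT and SCAT. Of 16 changed counts of genes, 6 stayed within 1.5-fold. Rescaling by median ratios, computed over names with at least 1 FPKM in all tissues, shifted log2 levels by 0.49 in SCAT, 0.42 in VAT, 0.19 in cortex, -0.04 in kidney, -0.09 in liver, -0.27 in BAT and -0.38 in muscle. These shifts turned the log2 ratio of Cd68 in muscle over the highest other tissue to -0.50 and that of Mrc1 in liver to -0.31. Why the libraries differ in their median ratios was not tested.

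The number of genes enriched in cortex was 0 with a pseudocount of 1, with median ratio scaling and with loci on the annotated strand only, where the log2 ratio of P2ry12 was 1.91, 1.73 and 1.89. The number enriched in liver was 2 with the SCAT library left out, an alternative chosen after seeing the data, as was leaving out VAT. The further Kupffer cell genes enriched in SCAT numbered 1 with a pseudocount of 1. Genes higher in VAT than in SCAT numbered 1 with a pseudocount of 1, with loci on the annotated strand and at 4-fold, and 0 with a minimum of 5 FPKM. At 4-fold, 1 gene was higher in SCAT.

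With another reference for the relative log2 levels, Clec4f in liver was at 3.03 with Cd68 alone and 1.51 with Csf1r alone, Marco in liver at -0.54 and -2.06, and Mrc1 in liver at 1.80 and 0.28. Marco in SCAT was at 3.01 with Adgre1 alone. In cortex, P2ry12 was at 4.62 with Adgre1, 4.44 with Cd68 and 2.25 with Csf1r, Tmem119 at 1.32, 1.14 and -1.05, and Trem2 at 0.90, 0.73 and -1.47. With loci on the annotated strand, an alternative also chosen after seeing the data, Marco was at -1.96 in liver and 1.57 in SCAT, P2ry12 at 1.22 in cortex and Tmem119 at -2.73 in cortex. Of the 31 relative levels that changed, the other 11 moved by less than 1.5-fold.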
